A study of Mus musculus with 96 samples.

Results

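Control C2C12 myoblasts treated with chloramphenicol for 48 hr were compared with DMSO-treated control myoblasts, 2 samples in each group and 4 of the 96 samples of the series. The 4 samples were taken by their labels (chloramphenicol with luciferase, DMSO for 48 hr with luciferase), not by any measured value. C2C12 is a mouse skeletal myoblast line that proliferates in serum and can be differentiated into myotubes. All 4 samples were proliferating cells of a stable line carrying a lentiviral, doxycycline-inducible luciferase, which served as the control protein, and received 300 ng/ml doxycycline. They were seeded at 2000 cells per well in medium with glucose, glutamine and dialyzed serum and without pyruvate. The treated samples received 20 µg/ml chloramphenicol in the presence of uridine. The sources used here do not say whether the DMSO samples also received uridine, so uridine cannot be told apart from chloramphenicol here. A parallel line carried LbNOX, a water-forming NADH oxidase from Lactobacillus brevis that converts NADH to NAD+, in place of luciferase, with 2 chloramphenicol and 2 DMSO samples handled in the same way. A further 12 samples of the control line were treated for 10 hr with DMSO, piericidin, antimycin or oligomycin.

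Chloramphenicol blocks the mitochondrial ribosome, which makes the few proteins encoded by mitochondrial DNA, all of them subunits of the respiratory chain or of ATP synthase. The other subunits are encoded in the nucleus, made in the cytosol and imported. Cells that sense mitochondrial or other stress can phosphorylate the translation factor eIF2α, which lowers protein synthesis in general and favours translation of the transcription factor ATF4. ATF4 and its partners CHOP (Ddit3) and ATF3 then switch on genes for amino acid synthesis, amino acid uptake and tRNA charging, a program called the integrated stress response (ISR).

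Total estimated counts were 11325043 and 15366745 in the DMSO samples and 9861105 and 10285243 in the chloramphenicol samples. Luciferase RNA was present in all 4 samples, at 167 and 137 CPM (counts scaled to a common library total) with DMSO and 77.7 and 114 with chloramphenicol, and LbNOX counts were 0 in each. The myoblast genes Myod1 and Des were expressed in all 4. Myog, the regulator that marks the onset of differentiation, had 0 and 2 counts with DMSO and 1 and 2 with chloramphenicol, and the fat cell marker Adipoq was at 0. Other genes of the fat, bone and cartilage lists were present, with 78 to 154 counts of Pparg, 80 to 169 of Lpl, 322 to 622 of Runx2 and 281 to 554 of Sox9, and their part in the results was not tested. The code in the labels, read as a well of a plate, put both DMSO samples in column 5 and both chloramphenicol samples in column 6, so plate column cannot be told apart from treatment. Nothing in the labels says that replicates came from separate cultures, so p-values measure the spread between these samples.

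In the control myoblasts, chloramphenicol was accompanied by higher mRNA of the ISR, of serine, one-carbon and asparagine synthesis, of amino acid transporters and of cytosolic tRNA synthetases, by higher mRNA of the glutathione S-transferases Gsta1 and Gsta4, by higher mRNA of several mitochondrially encoded complex I subunits, and by lower mRNA of sterol synthesis. Of 11702 genes tested with edgeR's quasi-likelihood test, 989 passed an adjusted p of 0.05, which is 8.45% of the genes. Of these, 565 were higher with chloramphenicol (4.83%) and 424 were lower (3.62%). Changes of at least 2-fold were seen for 118 of the higher genes and 33 of the lower ones. Over all genes the median log2 fold change was 0.01. Both samples of one group lay above both of the other for 52% of the genes tested, and an exact permutation test of 2 against 2 samples cannot fall below p = 0.333, so separation of the 4 values is given below as a description and the calls come from the edgeR fit. With 1 of the 4 samples left out, 381 to 606 genes were called, and no gene called with all samples changed sign.

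Among named genes with a mean of at least 50 normalized counts (counts divided by size factors of the 8 samples of the 48 hr experiment), the largest increase was in Gsta1, a glutathione S-transferase. Gsta1 was at 8.44 and 17.6 normalized counts with DMSO and at 671 and 627 with chloramphenicol. Both treated samples stood far above both DMSO samples, with a log2 fold change of 5.56 (adjusted p = 1.6e-05, SE 0.32). Its close relatives Gsta2 and Gm3776 were higher as well, at log2 fold changes of 4.77 (called in 2 of the 4 fits that left out 1 sample) and 5.25, and since these genes are nearly identical in sequence, the division of reads among them is uncertain. Cdsn, which encodes the junction protein corneodesmosin, rose from 34.7 and 32.7 to 540 and 418 normalized counts. Acot2, a mitochondrial acyl-CoA thioesterase, rose from 66.6 and 82.3 to 701 and 588. Serpinb9b, a protease inhibitor, rose from 63.7 and 64.7 to 649 and 478. In each of these genes the samples of the groups did not overlap, and the log2 fold changes were 3.84, 3.11 and 3.14. Chchd10, a protein of the mitochondrial intermembrane space, had a log2 fold change of 3.17 (adjusted p = 0.0054), and this call was lost without chloramphenicol sample 1, at an adjusted p of 0.0501.

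The largest decreases included 6 genes of sterol and fatty acid metabolism (Idi1, Insig1, Elovl6, Hmgcs1, Lss and Cyp51), which are described with their pathway. Avpr1a, a vasopressin receptor, was at 127 and 139 normalized counts with DMSO and at 44.6 and 56.1 with chloramphenicol. The treated samples were both below the DMSO samples, and the log2 fold change was -1.40 (SE 0.21, adjusted p = 0.0045). Cxcl12, a chemokine, fell from 545 and 701 to 260 and 306. Its receptor Cxcr4, together with Klhl13, Sytl5 and Ulbp1, had log2 fold changes of -1.42 to -1.09 with all samples, but each of these 4 calls was lost in at least 3 of the 4 fits that left out 1 sample.

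**Figure D1:**
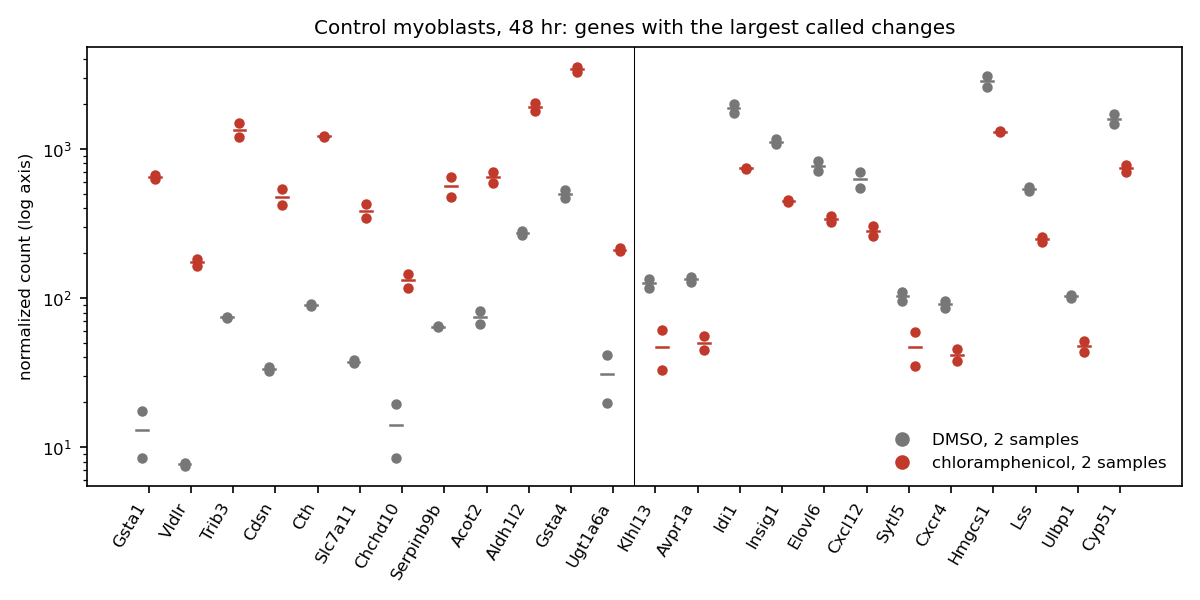
Normalized counts (log axis) of the 12 genes with the largest called increases and the 12 with the largest called decreases, 1 point per sample, with bars at group means of 2 samples. In each gene both chloramphenicol samples lie on the same side of both DMSO samples. The DMSO samples of Gsta1 lie at 8.44 and 17.6.

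The direct target of chloramphenicol is the translation of 13 mRNAs encoded by mitochondrial DNA. Their summed level was similar in the groups, at 9368 and 10708 CPM with DMSO and 10212 and 10469 with chloramphenicol. Within that sum the individual mRNAs moved in different directions. With chloramphenicol 6 of 13 were called higher (mt-Nd1, mt-Nd2, mt-Nd3, mt-Nd4, mt-Cytb and mt-Atp8), mt-Co1 was called lower, and 6 were not called. The median log2 fold change of the 13 was 0.39.

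mt-Nd3, a small complex I subunit, was at 960 and 966 normalized counts with DMSO and at 2828 and 2416 with chloramphenicol. The treated samples were both higher, and the log2 fold change of 1.45 (adjusted p = 2.7e-05, SE 0.09) was the largest of the 13. mt-Nd2, also of complex I, was at 1743 and 2074 with DMSO and at 3683 and 3306 with chloramphenicol, a log2 fold change of 0.88 (adjusted p = 0.00039, SE 0.09). mt-Atp8, a small subunit of ATP synthase, was at 1071 and 1099 with DMSO and at 1749 and 1494 with chloramphenicol, a log2 fold change of 0.59 (adjusted p = 0.0027). mt-Nd1 was at 19849 and 20799 with DMSO and at 27456 and 27080 with chloramphenicol, a log2 fold change of 0.43 (adjusted p = 0.0022). These 4 calls held whichever of the 4 samples was left out. The smaller differences of mt-Cytb (log2 fold change 0.39) and mt-Nd4 (0.31) were called in 1 and 0 of those 4 fits.

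mt-Co1, the catalytic core of cytochrome c oxidase, went the other way. It was at 24772 and 24374 normalized counts with DMSO and at 13814 and 15065 with chloramphenicol, a log2 fold change of -0.76 (adjusted p = 0.00039, SE 0.07) that held in all 4 fits with a sample left out. The other mitochondrially encoded subunits of the same enzyme were not called. mt-Co2 was at 5315 and 5766 with DMSO and at 6084 and 5797 with chloramphenicol (log2 fold change 0.11, adjusted p = 0.36). mt-Co3 was at 11790 and 11864 with DMSO and at 10814 and 10122 with chloramphenicol (log2 fold change -0.17, adjusted p = 0.083). Of the large complex I subunits, mt-Nd5 had a log2 fold change of -0.14 (adjusted p = 0.26), and the light-strand transcript mt-Nd6 had -0.17 (adjusted p = 0.43), on libraries that do not keep the strand. The large mitochondrial ribosomal RNA, mt-Rnr2, was at 177081 and 175438 normalized counts with DMSO and at 178390 and 163271 with chloramphenicol (log2 fold change -0.04, adjusted p = 0.69), in libraries primed on polyA.

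Nuclear copies bear on 7 of these 13 values. Each of mt-Nd3, mt-Nd4, mt-Nd4l, mt-Co1, mt-Co2, mt-Co3 and mt-Atp6 shares 29.6% to 99.9% of its 31-base stretches with an annotated copy on chromosome 1, and reads can be divided between them. With the copy's counts added to each gene, mt-Nd3 had a log2 fold change of 1.40 (adjusted p = 0.00039, SE 0.14) and mt-Co1 of -0.77 (adjusted p = 0.00043). In that sum mt-Nd4l, at 320 and 287 normalized counts with DMSO and 514 and 489 with chloramphenicol, and mt-Atp6, at 24900 and 26848 against 35485 and 33152, were called as well, at adjusted p = 0.0026 and 0.0014, which made 8 of the 13 higher and 1 lower, where 8.52% of all genes were called. Without the copies these genes had adjusted p = 0.13 and 0.052.

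**Figure D2:**
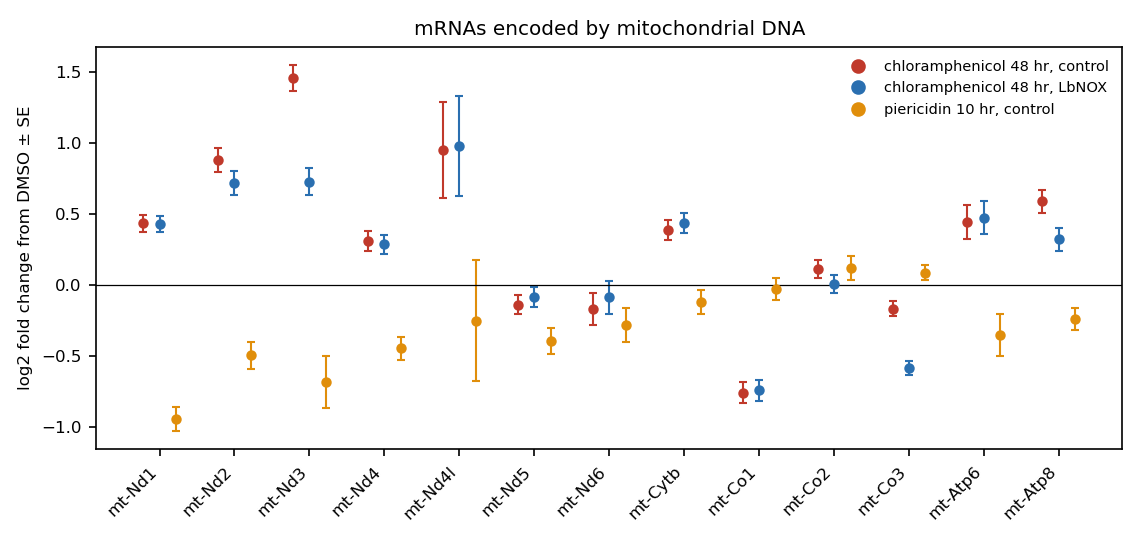
Log2 fold change from the matching DMSO group ± SE for the 13 mRNAs of mitochondrial DNA, in control myoblasts with chloramphenicol for 48 hr, in LbNOX myoblasts with chloramphenicol for 48 hr, and in control myoblasts with piericidin for 10 hr. mt-Nd3 (1.45) is the highest and mt-Co1 (-0.76) the lowest in control myoblasts with chloramphenicol, and mt-Nd1 lies above 0 with chloramphenicol and at -0.95 with piericidin.

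The nuclear-encoded subunits of the respiratory chain are given by complex. Of 36 complex I subunits 3 were called, all higher (median log2 fold change 0.16), a share near the 8.45% over all genes, and of 12 complex IV subunits 5 were called, all higher (median 0.25). Uqcrq, a small subunit of complex III, stood out, at 635 and 600 normalized counts with DMSO and 1346 and 1291 with chloramphenicol. Both treated samples were above both DMSO samples, and the log2 fold change was 1.10 (SE 0.08, adjusted p = 6.8e-05). No other member of the 9 complex III genes was called. In complex IV, Cox7a2l, which takes part in joining complexes into supercomplexes, rose from 1470 and 1507 to 1913 and 2000 (log2 fold change 0.40, adjusted p = 0.0031). The 4 further calls in complex IV (Cox4i1, Cox6c, Cox7c and Cox8a, log2 fold changes 0.25 to 0.59) were each lost when 1 sample was left out, and 1 call remained in the list without chloramphenicol sample 1 or without DMSO sample 2. The 3 complex I calls (Ndufa13, Ndufs7 and Ndufa6) fell to at most 1 with any of the 4 samples left out, and 6 were called with all 45 myoblast samples in the fit. Of 15 nuclear complex V subunits 1 was called higher, near the 8.45% over all genes, and complex II had 1 of 4 higher and 1 lower. These calls (Atp5g1, Sdhb and Sdhd, log2 fold changes 0.29, 0.34 and -0.30) were each lost in most fits with a sample left out.

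Chloramphenicol acts on the mitochondrial ribosome. Of its 78 proteins 2 were called higher and 2 lower, against 8.45% of all genes, with at most 1 call when any of the 4 samples was left out (with all 45 myoblast samples in the fit 9 were higher and 2 lower), and their median log2 fold change was 0.09. Their summed level was 3689 and 3847 CPM with DMSO and 3733 and 3666 with chloramphenicol. None of the 17 mitochondrial tRNA synthetases was called in the filtered 48 hr samples by edgeR or by DESeq2, 3 had an unadjusted p under 0.05, and their median was 0.20. In edgeR fits without the count filter, with all 16 control samples or with all 45 myoblast samples, 1 was called higher, which in the fit of 16 samples was Vars2 (log2 fold change 0.79, adjusted p = 0.033). Of 30 factors for mitochondrial replication, transcription and translation 1 was called, Lrpprc, which stabilises mitochondrial mRNA (log2 fold change 0.46), and it was kept in 1 of the 4 fits with a sample left out.

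Mitochondrial chaperones and proteases showed 6 of 23 called, all higher, with a median of 0.18, where 4.83% of all genes were called higher. Lonp1, the main protease of the matrix, was at 349 and 288 normalized counts with DMSO and at 876 and 880 with chloramphenicol. The groups were well apart, with a log2 fold change of 1.48 (adjusted p = 5.6e-05, SE 0.10). Hspa9, the matrix HSP70 that pulls in imported proteins, rose from 6308 and 6417 to 11478 and 11142, a log2 fold change of 0.84 (adjusted p = 3.7e-06, SE 0.04), and its cochaperone Dnaja3 from 704 and 763 to 1122 and 1007. The chaperonin Hspd1 was called at a log2 fold change of 0.25, in 2 of the 4 fits with a sample left out. The protease subunit genes Clpp and Clpx were not called, at 0.11 and 0.22. Leaving out chloramphenicol sample 1 or DMSO sample 2 left 3 of the 6 calls. Of 16 genes of mitochondrial dynamics and biogenesis 1 was called, a share near the 8.45% over all genes. It was Bnip3l, a mitophagy receptor (log2 fold change -0.27), and that call was lost in each fit with a sample left out.

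The ISR regulators and their feedback genes rose together. Of 17 tested, 15 were called, all higher, with a median log2 fold change of 1.88. The members not called were Ddit4 (1.08) and Ppp1r15b (0.18), and Cebpb and Fgf21 did not pass the filter on low counts. Without chloramphenicol sample 1 the number called was 11. The list was chosen with earlier results of these data known, so its direction is not independent evidence.

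Atf4 was at 2551 and 2521 normalized counts with DMSO and at 5586 and 5266 with chloramphenicol. The replicates were close together within each group, and the log2 fold change was 1.11 (SE 0.05, adjusted p = 4.5e-06). Ddit3, which encodes CHOP, was at 209 and 172 with DMSO and at 785 and 670 with chloramphenicol. Trib3, a pseudokinase gene induced by ATF4 and CHOP, was at 75.0 and 73.8 with DMSO and at 1494 and 1195 with chloramphenicol, with a log2 fold change of 4.18 (adjusted p = 8.6e-07, SE 0.14). Gdf15, a secreted stress cytokine, rose from 112 and 87.5 to 354 and 378. Chac1, which degrades glutathione, rose from 201 and 178 to 833 and 806, a log2 fold change of 2.13 (adjusted p = 3.8e-06). Eif4ebp1, a repressor of cap-dependent translation, rose from 1215 and 1200 to 3441 and 3227. The largest change in the list was in Vldlr, the receptor for very low density lipoprotein, which rose from 7.50 and 7.84 to 184 and 163, a log2 fold change of 4.48 (adjusted p = 6.7e-05, SE 0.33). In all of these genes both treated samples were above both DMSO samples and the call held whichever of the 4 samples was left out.

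Atf3 was measured less firmly. Its values were 3.75 and 16.3 normalized counts with DMSO and 75.7 and 81.5 with chloramphenicol. The treated samples were close to each other and the DMSO samples were not, and the call (log2 fold change 2.88, SE 0.52, adjusted p = 0.010) was kept in 2 of 4 fits with a sample left out, with log2 fold changes of 2.26 to 4.34. The mRNAs of the 4 eIF2α kinases and of eIF2α itself were not called by edgeR or by DESeq2, and 1 of these 5 genes had an unadjusted p under 0.05. Eif2ak4, the kinase GCN2 that senses uncharged tRNA, was at 280 and 246 with DMSO and at 250 and 241 with chloramphenicol, and Eif2ak1, the kinase HRI, had a log2 fold change of -0.27 (adjusted p = 0.12).

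Enzymes of amino acid synthesis and one-carbon metabolism were called higher in 15 of 23 genes and lower in 2, with a median log2 fold change of 0.84. Asns, asparagine synthetase, was at 1427 and 1392 normalized counts with DMSO and at 4740 and 4547 with chloramphenicol. Replicates differed by far less than the groups, and the log2 fold change was 1.73 (SE 0.05, adjusted p = 8.6e-07). Cth, which makes cysteine from cystathionine, rose from 91.9 and 88.8 to 1226 and 1199 (log2 fold change 3.75, SE 0.11). In the mitochondrial folate pathway, Shmt2 rose from 2206 and 2220 to 5700 and 5400 (log2 fold change 1.33) and Aldh1l2 from 264 and 281 to 2020 and 1789 (log2 fold change 2.81). The cytosolic relatives Shmt1 and Mthfd1 were not called, at log2 fold changes of 0.05 and 0.01, and their signs turned with 1 sample left out. The serine synthesis enzymes Phgdh, Psat1 and Psph had log2 fold changes of 0.72, 0.95 and 1.77, all called. Pycr1, an enzyme of proline synthesis, had 1.63. The members called lower included Glul, glutamine synthetase (log2 fold change -0.47), a call lost in each of the 4 fits with a sample left out, and 13 or 14 members were called higher in those fits. Shmt1, Mthfd1, Phgdh, Psat1, Psph, Glul and Pycr1 were named after their values were seen.

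A binding motif of this program was found in some of the promoters. The C/EBP-ATF response element, searched as TGATGNAAN on both strands in the 250 bases before the start, was present in 3.44% of 32851 mouse promoters. Of the 8854 tested genes with a promoter entry 2.26% held it, and of the sterol list 1 of 16 genes did. It was found in 4 of the 15 ISR genes and in 4 of the 19 amino acid enzymes with an entry (sequences from RefSeq, build GRCm38.p6). They are shown because these are the promoters of members that rose with chloramphenicol, and the capitals mark the match, which reads NTTNCATCA where it lies on the other strand.
Atf3 (chr1:191183410-191183470, minus strand): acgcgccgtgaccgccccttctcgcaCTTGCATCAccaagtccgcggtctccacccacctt
Nupr1 (chr7:126625547-126625607, minus strand): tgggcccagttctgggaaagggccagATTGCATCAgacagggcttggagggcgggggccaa
Chac1 (chr2:119351022-119351082, plus strand): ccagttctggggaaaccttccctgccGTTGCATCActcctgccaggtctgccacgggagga
Vldlr (chr19:27216793-27216853, plus strand): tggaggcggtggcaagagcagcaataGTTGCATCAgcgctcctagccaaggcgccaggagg
Asns (chr6:7693210-7693258, minus strand): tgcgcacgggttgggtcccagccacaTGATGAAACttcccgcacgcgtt
Pycr1 (chr11:120643817-120643877, minus strand): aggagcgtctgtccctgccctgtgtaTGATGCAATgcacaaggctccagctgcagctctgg
Pck2 (chr14:55540136-55540196, plus strand): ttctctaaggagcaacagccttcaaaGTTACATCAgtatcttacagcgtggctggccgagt
Got1 (chr19:43524674-43524734, minus strand): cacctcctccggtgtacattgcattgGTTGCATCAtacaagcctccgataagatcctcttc

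These matches describe letters in a window and not binding, and no match says only that the letters are not in that window. Nupr1, Pck2 and Got1 were named for the match, and the call of Got1 was kept in 1 of 4 fits with a sample left out. The log2 fold changes of the 8 genes shown ran from 0.57 (Got1) through 1.10 (Nupr1), 1.63 (Pycr1), 1.73 (Asns), 1.96 (Pck2), 2.13 (Chac1) and 2.88 (Atf3) to 4.48 (Vldlr).

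Amino acid transporters were called higher in 9 of 13 and lower in 1, with a median log2 fold change of 0.80. Slc7a11, the cystine importer that feeds glutathione synthesis, was at 36.6 and 38.5 normalized counts with DMSO and at 426 and 342 with chloramphenicol. Both treated samples were well above both DMSO samples, and the log2 fold change was 3.35 (SE 0.20, adjusted p = 1.9e-05). The chains of the large neutral amino acid transporter also rose. Slc3a2 went from 1599 and 1581 to 4625 and 4033 (log2 fold change 1.45) and Slc7a5 from 84.4 and 83.6 to 218 and 281 (log2 fold change 1.58). The glycine transporter Slc6a9 rose from 113 and 116 to 616 and 572. Slc7a3 had the largest log2 fold change of the list, 3.71, on 1.31 to 34.9 normalized counts, and that call was lost in each of the 4 fits with a sample left out. Slc38a2, the sodium-coupled neutral amino acid transporter SNAT2, was the member called lower, at 3917 and 4184 with DMSO and 3592 and 3360 with chloramphenicol (log2 fold change -0.21), and it was kept in 1 of those 4 fits.

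Cytosolic tRNA synthetases were called in 14 of 20, all higher, with a median log2 fold change of 0.62. Sars, the synthetase for serine, was at 1993 and 2012 normalized counts with DMSO and at 4196 and 4361 with chloramphenicol. The groups did not overlap, and the log2 fold change was 1.10 (SE 0.05, adjusted p = 3.1e-06). Nars, Gars and Wars, for asparagine, glycine and tryptophan, had log2 fold changes of 1.00, 0.97 and 0.95. The members that were not called were Farsa, Dars, Kars, Qars, Hars and Vars, at log2 fold changes of -0.11 to 0.50. The count was 13 or 14 with any of the 4 samples left out.

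Antioxidant genes that the transcription factor NRF2 is known to control were called in 12 of 18, all higher, with a median log2 fold change of 0.52. The list shares Slc7a11 with the transporters. Gsta4, a glutathione S-transferase that handles lipid aldehydes, was at 465 and 532 normalized counts with DMSO and at 3538 and 3271 with chloramphenicol. All treated values were above all DMSO values, with a log2 fold change of 2.78 (adjusted p = 8.6e-07, SE 0.09). Nqo1, a quinone reductase, rose from 655 and 655 to 1529 and 1328 (log2 fold change 1.13, SE 0.08). Fth1, the ferritin heavy chain, rose from 16589 and 16026 to 24024 and 22546 (log2 fold change 0.52, SE 0.04). The pentose phosphate enzymes G6pdx, Tkt and Taldo1 had log2 fold changes of -0.13, -0.10 and 0.16 and were not called. With any of the 4 samples left out, 7 to 9 members were called, and 7 without chloramphenicol sample 1, chloramphenicol sample 2 or DMSO sample 2. Antioxidant enzymes of the mitochondrion itself showed 1 of 8 called, where 8.45% of all genes were called. It was Txn2 (log2 fold change 0.30), which was kept in 1 of the 4 fits with a sample left out. Sod2, the matrix superoxide dismutase, was at 961 and 925 with DMSO and at 1067 and 917 with chloramphenicol, so its groups overlapped.

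**Figure D3:**
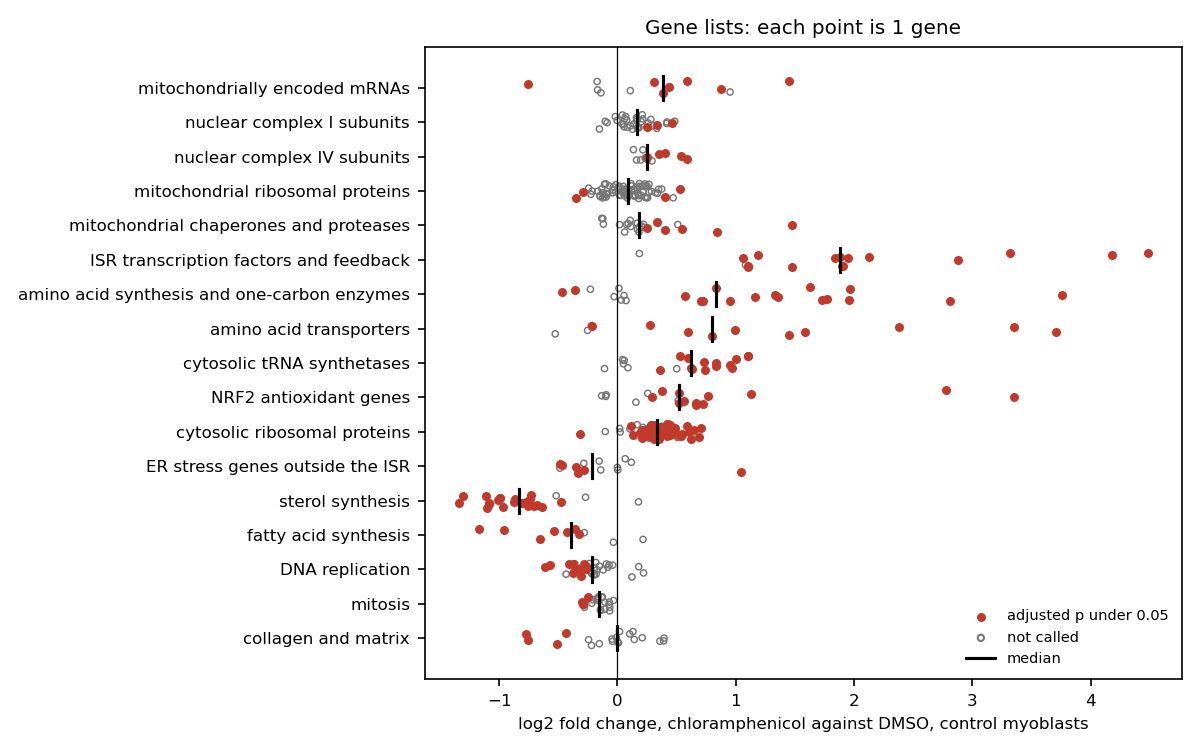
Log2 fold change with chloramphenicol in control myoblasts for each tested gene of 17 gene lists, 1 point per gene, filled where the adjusted p was under 0.05, with the list median as a black bar. The ISR list has its median at 1.88 with 15 of 17 points filled, and the sterol list at -0.83 with 21 of 24 filled.

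Sterol synthesis genes were lower with chloramphenicol. Of 24 tested 21 were called, all lower, with a median log2 fold change of -0.83, and 18 to 20 were called lower with any of the 4 samples left out. Idi1, which isomerises the building block of isoprenoids, was at 1745 and 2010 normalized counts with DMSO and at 734 and 743 with chloramphenicol. Both treated samples were well below both DMSO samples, with a log2 fold change of -1.34 (adjusted p = 1.5e-05, SE 0.08). Insig1, which holds the sterol-sensing machinery in the endoplasmic reticulum and is itself a target of SREBP2, fell from 1083 and 1155 to 457 and 443 (log2 fold change -1.31). Hmgcs1, an early enzyme of the mevalonate pathway, fell from 2597 and 3070 to 1293 and 1317, and Fdps, farnesyl diphosphate synthase, from 2465 and 2734 to 1267 and 1332. The post-squalene enzymes Lss and Cyp51 had log2 fold changes of -1.11 and -1.09. The members not called were Mvk (-0.52), Ebp (-0.27) and Tm7sf2 (0.18).

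The promoter of Hmgcs1 holds the letters of a sterol regulatory element, searched as TCACNCCAC on both strands and present in 1.05% of the 32851 promoters. It is shown because Hmgcs1 is among the genes that fell most, and the capitals mark the match. Of the 24 sterol genes 16 have a promoter entry (66.7%), and Hmgcs1 was the 1 of these 16 with the letters. With so many entries missing the count is no statement on the list.
Hmgcs1 (chr13:119690188-119690248, plus strand): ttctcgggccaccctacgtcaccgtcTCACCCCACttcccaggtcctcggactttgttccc

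Fatty acid synthesis and desaturation followed with 7 of 10 called lower and a median of -0.39. Elovl6, which elongates palmitate, fell from 705 and 826 normalized counts to 324 and 354 (log2 fold change -1.17, SE 0.11, adjusted p = 0.00028). The desaturase gene Scd2 fell from 6767 and 7579 to 3592 and 3746 (log2 fold change -0.96). In both genes all treated values were below all DMSO values, and the calls held whichever sample was left out. Srebf1, Fads2, Fasn, Scd1 and Acly had log2 fold changes of -0.65 to -0.32 and were each lost in 2 or 3 of those 4 fits. Without chloramphenicol sample 1 the count was 2, and without DMSO sample 2 it was 3. Acaca, the rate-limiting carboxylase, was at 341 and 355 with DMSO and at 355 and 322 with chloramphenicol.

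Genes of the endoplasmic reticulum outside the ISR list did not rise with it. Of 14 tested 1 was called higher and 5 lower, with a median log2 fold change of -0.22. Over all genes 4.83% were called higher and 3.62% lower. Among the lower calls, Creld2 (-0.49) and Manf (-0.35) were lost in some fits with a sample left out. Hspa5, the chaperone BiP, was at 7340 and 8002 normalized counts with DMSO and at 8135 and 7830 with chloramphenicol, so the groups overlapped (log2 fold change 0.07, adjusted p = 0.47). Calr, the lectin chaperone calreticulin, fell from 8239 and 8451 to 5900 and 6066 (log2 fold change -0.47, SE 0.04, adjusted p = 7.9e-05). Hsp90b1 and Pdia6, further folding factors, had log2 fold changes of -0.28 and -0.34. Herpud1, which takes part in degradation at the membrane of the endoplasmic reticulum, was the member that rose, from 885 and 799 to 1818 and 1635 (log2 fold change 1.04, SE 0.08, adjusted p = 7.2e-05).

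Cytosolic ribosomal protein mRNAs were called higher in 61 of 83 and lower in 1, with a median log2 fold change of 0.34. Their summed level was 39544 and 39478 CPM with DMSO and 46168 and 45748 with chloramphenicol. The groups were apart, but the calls of single genes depended on the samples, with 27 called without chloramphenicol sample 1, 30 without DMSO sample 2, 36 without chloramphenicol sample 2 and 56 without DMSO sample 1. Rps20 rose from 4952 and 4604 normalized counts to 7197 and 7042 (log2 fold change 0.58), and Rplp0, a protein of the ribosomal stalk, from 24120 and 24145 to 29318 and 29300 (log2 fold change 0.29, SE 0.03). These genes have many processed pseudogenes, among which reads can be divided. The member called lower was Rpl5 (log2 fold change -0.32), a call lost in each fit with a sample left out.

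Of 32 genes of DNA replication 11 were called, all lower, with a median log2 fold change of -0.22. Over all genes 3.62% were called lower, which is the share to set beside this list and the mitosis list. Rrm2, the regulated subunit of ribonucleotide reductase, fell from 9248 and 9108 normalized counts to 7116 and 6915 (log2 fold change -0.38, SE 0.03, adjusted p = 0.00022). The replicative helicase subunits Mcm3 and Mcm4 had log2 fold changes of -0.38 and -0.41. These 3 calls held with each sample left out, while the count in the list fell to 4 without DMSO sample 2, 5 without chloramphenicol sample 2, 6 without chloramphenicol sample 1 and 7 without DMSO sample 1. Of 22 mitosis genes 4 were called lower, 0 to 2 with 1 of the 4 samples left out and 9 with all 45 myoblast samples in the fit. Of 20 p53 targets 2 were called higher, a share near the 8.45% over all genes, and 0 to 2 with 1 of the 4 samples left out (none without chloramphenicol sample 1). They were Eda2r (log2 fold change 0.61, adjusted p = 0.0498, kept in 1 of those fits) and Cdkn1a, which encodes the cell cycle inhibitor p21, from 1187 and 1189 to 1584 and 1538 (log2 fold change 0.40, adjusted p = 0.0045). The Cdkn1a call was kept in 3 of 4 fits, with a highest adjusted p of 0.051.

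Glycolysis genes split. Of 22 tested 3 were called higher and 5 lower, with a median log2 fold change of -0.05, where 4.83% of all genes were called higher and 3.62% lower. Hk2, the inducible hexokinase, rose from 257 and 218 normalized counts to 500 and 440 (log2 fold change 1.00, SE 0.12, adjusted p = 0.0016). Ldha, which makes lactate, fell from 12994 and 13656 to 10131 and 10526 (log2 fold change -0.36, SE 0.04), and the muscle enolase Eno3 from 8298 and 8114 to 5433 and 5942 (log2 fold change -0.52). All 3 genes had groups that did not overlap. With 1 of the 4 samples left out, 1 or 2 were called higher and 2 to 4 lower. The TCA cycle and NADH shuttles had 2 of 25 called, a share near the 8.45% over all genes, both lower (Mdh1 and Gpd2, log2 fold changes -0.22 and -0.32), and both were lost in each fit with a sample left out.

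Among 20 collagen and matrix genes 4 were called, against 8.45% of all genes, all lower, in each fit with a sample left out as well. Thbs1, the matrix glycoprotein thrombospondin, fell from 7659 and 8182 normalized counts to 4603 and 4708 (log2 fold change -0.76, SE 0.07). The others were Col8a1 (-0.77), Tnc (-0.51) and Col5a2 (-0.44). Among 14 genes that respond to YAP or TGF-beta, 3 were lower and 1 higher, again against 8.45%, and Id3, an inhibitor of basic helix-loop-helix factors, fell from 6661 and 6517 to 4549 and 4778 (log2 fold change -0.49). Myc was the immediate early gene called higher, from 510 and 483 to 789 and 759 (log2 fold change 0.65, adjusted p = 0.0030), and 2 of 14 were lower (0 to 2 with a sample left out), where 8.45% of all genes were called. Purine and pyrimidine synthesis had 1 of 17 called, Cad, and the glucose-responsive list 1 of 4, Arrdc3, and both calls were lost in each fit with a sample left out. None of 6 interferon response genes was called in the filtered 48 hr samples by edgeR or by DESeq2, 1 was called higher in the edgeR fits without the count filter, with 16 or with 45 samples, and 1 had an unadjusted p under 0.05, Ifit1, which was at 30.9 and 15.02 with DMSO and 101 and 50.8 with chloramphenicol (adjusted p = 0.052).

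Of the muscle genes, Myod1 was at 1418 and 1397 normalized counts with DMSO and at 1353 and 1409 with chloramphenicol. Of 8 myoblast markers 3 were called, against 8.45% of all genes. Ncam1 was higher (log2 fold change 0.41) and Cdh15 and Itga7 lower (-0.63 and -0.39), Itga7 in 2 of 4 fits with a sample left out. The summed level of the myoblast markers was 983 and 1057 CPM with DMSO and 866 and 916 with chloramphenicol, and that of the bone and cartilage markers 82.1 and 78.2 against 62.3 and 70.8, while the fat cell markers overlapped (22.2 and 21.6 against 16.4 and 22.4). The summed level of 25 differentiation markers was 203 and 212 CPM with DMSO and 154 and 160 with chloramphenicol, mainly Chrna1, the acetylcholine receptor subunit, at 1762 and 1793 against 1280 and 1390. Only 6 of these 25 markers passed the count filter. In bulk RNA fewer cells of a type and less RNA per cell cannot be told apart, and the part of these differences in the other results was not tested.

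The LbNOX line shows how the response to chloramphenicol differed in cells with an added NADH oxidase. Each protein was carried by its own stable line, so other differences between the lines cannot be told apart from NADH oxidation. The LbNOX DMSO samples lay in plate columns 5 and 6 and all chloramphenicol samples in column 6. Plate column therefore goes partly with the difference between the lines. With chloramphenicol 109 genes (0.931%) were called in LbNOX myoblasts. Of the 989 genes called in control myoblasts, 884 had the same sign in LbNOX myoblasts and 96 were also called there with that sign, which is 9.71% of the control calls and 88.1% of the LbNOX calls. The difference of the responses itself was called for 62 genes (0.53%), 53 with a lower (0.453%) and 9 with a higher value (0.0769%) in LbNOX myoblasts. Without the count filter 440 were called, 196 lower and 244 higher, and with replicate number as a block 22. The count of 62 also depended on the samples. It was 0 without LbNOX chloramphenicol sample 1 (925 genes had an unadjusted p under 0.05, against 1181 with all samples), 2 without LbNOX chloramphenicol sample 2, 7 without control chloramphenicol sample 1 and 9 without LbNOX DMSO sample 2, and DESeq2 called 140.

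Atf4 was at 2892 and 2752 normalized counts in LbNOX myoblasts with DMSO and at 3146 and 3319 with chloramphenicol. Its log2 fold change there was 0.20, against 1.11 in control myoblasts, and the difference of -0.91 (SE 0.07) had an adjusted p of 0.0040. Trib3, at 95.2 and 79.9 with DMSO and 453 and 456 with chloramphenicol, still rose in LbNOX myoblasts, with a log2 fold change of 2.37 (adjusted p = 9.3e-05) and a difference of -1.81 (adjusted p = 0.011). For Ddit3 the log2 fold change in LbNOX myoblasts was 0.46 (adjusted p = 0.22) and the difference -1.49 (adjusted p = 0.015). Over the ISR list 7 of 17 differences were called, all negative, with a median of -1.03, and the difference was positive for Ddit4.

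Sqstm1, an autophagy receptor, had the smallest p of the difference. It rose from 5942 and 5889 to 13975 and 12733 in control myoblasts and was at 5520 and 5841 with DMSO and 6292 and 6528 with chloramphenicol in LbNOX myoblasts, a difference of -1.01 (SE 0.07, adjusted p = 0.0026). Of the amino acid enzymes 9 of 23 differences were called negative (median -0.38), and 12 of 23 were still called higher with chloramphenicol in LbNOX myoblasts. Of the sterol genes 3 differences were called positive, among them Idi1 (0.83) and Fdps (0.52), and the list median was 0.59. Ldha changed sign, with a log2 fold change of 0.20 in LbNOX myoblasts, from 13693 and 13821 to 15612 and 15980, and a difference of 0.56 (SE 0.05, adjusted p = 0.0054). For the mRNAs of mitochondrial DNA the median difference was -0.0022, and the smallest adjusted p was 0.054 (mt-Co3, difference -0.42). mt-Co1 had log2 fold changes of -0.76 and -0.74 in control and LbNOX myoblasts and mt-Nd1 0.43 in both, while mt-Nd3 had 1.45 and 0.73 (difference -0.73, adjusted p = 0.057).

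**Figure D4:**
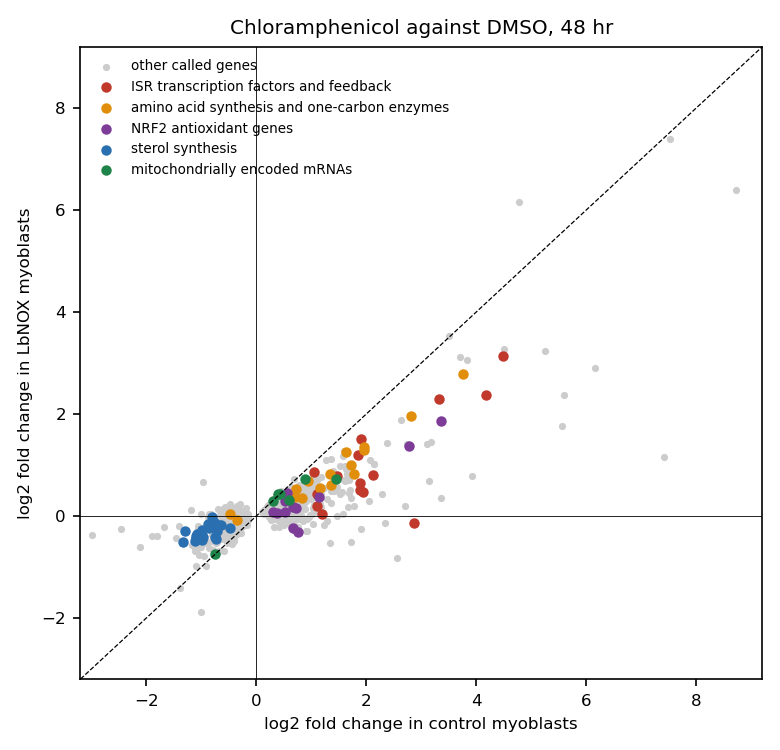
Log2 fold change with chloramphenicol in control myoblasts (horizontal) and LbNOX myoblasts (vertical) for the 989 genes called in control myoblasts, with 5 gene lists coloured and a dashed line where both responses are equal. Since the genes were chosen by their call in control myoblasts, distance from the line is a description. Called ISR genes lie below the line, with Atf4 at 1.11 and 0.20, and the mitochondrially encoded mRNAs other than mt-Nd3 lie near it.

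Piericidin, an inhibitor of complex I, was given to control myoblasts for 10 hr, with more cells seeded and without uridine, so the compounds differ in time and medium as well as in target, and each was set against its own DMSO samples. In a fit of 16 control samples 1300 of 11827 genes (11%) were called with chloramphenicol, 6.57% higher and 4.42% lower, and 7170 (60.6%) with piericidin. Of the chloramphenicol calls 1009 had the same sign and were also called with piericidin, which is 77.6% of the chloramphenicol calls and 14.1% of the piericidin calls, and 111 were called with opposite signs. The responses differed in 4305 genes (36.4%).

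ISR changes were larger with piericidin. The list median was 1.89 with chloramphenicol and 3.56 with piericidin, and 14 of its differences were called lower with chloramphenicol. Gdf15 had log2 fold changes of 1.90 and 4.91, Ddit3 of 1.95 and 4.59, and Atf3 of 2.82 and 7.33. Asns was closer, at 1.72 and 2.16 (difference -0.44, SE 0.07, adjusted p = 8.0e-05). For Vldlr the log2 fold changes were 4.47 and 3.89 with a difference of 0.58 (SE 0.32, adjusted p = 0.19), and for Slc7a11 3.35 and 2.93 with a difference of 0.42 (SE 0.29, adjusted p = 0.28). Sterol genes had medians of -0.84 and -1.46, and DNA replication genes of -0.22 and -0.88.

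Several groups differed between the compounds. The mRNAs of mitochondrial DNA had a median of 0.38 with chloramphenicol and -0.28 with piericidin. With piericidin 6 of the 13 were called, all lower, where 60.6% of all genes were called and 30% were called lower. Of the 13 differences 7 were called higher and 2 lower with chloramphenicol, where 18% of all genes were called higher and 18.4% lower. The 2 lower differences were mt-Co1 (-0.73, adjusted p = 0.00027) and mt-Co3 (-0.26, adjusted p = 0.024). mt-Nd1 had log2 fold changes of 0.43 and -0.95, and mt-Nd3 of 1.45 and -0.68 (difference 2.13, SE 0.29, adjusted p = 3.1e-05). mt-Co1 was lower with chloramphenicol (-0.76) and was at -0.03 (adjusted p = 0.77) with piericidin. The NRF2 list had medians of 0.52 and 0.13. With piericidin 9 of its 18 genes were called higher and 6 lower, where 30.6% of all genes were called higher and 30% lower. Of its differences 8 were called higher and 2 lower with chloramphenicol, so opposite changes were not the rule in the list. Nqo1 rose with chloramphenicol (1.13) and fell with piericidin (-0.91), and so did Aldh3a1, an aldehyde dehydrogenase (1.67 and -0.97). Gsta4 rose with both, by log2 fold changes of 2.77 and 0.77 (difference 2.01, SE 0.10). In the same fit Gsta4 had 1.94 with antimycin and 0.95 with oligomycin. Gsta1 had 5.56 with chloramphenicol and 2.10, 2.72 and 1.97 with piericidin, antimycin and oligomycin. Prl2c3, of the prolactin family and with close copies that share reads, had 1.41 and -0.88.

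In the other direction, Hspa5 was at a log2 fold change of 0.06 (adjusted p = 0.40) with chloramphenicol and 2.05 with piericidin, a difference of -1.99 (SE 0.05, adjusted p = 1.2e-12). Tnc, the matrix protein tenascin C, fell with chloramphenicol (-0.51) and rose with piericidin (1.67). Lce1g, Ccbe1 and Mfsd2a, at low counts, had log2 fold changes of -0.83, -1.33 and -1.19 with chloramphenicol and 1.74, 0.75 and 0.68 with piericidin. In the fit of the 48 hr samples alone these 3 genes had adjusted p of 0.11, 0.074 and 0.12.

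**Figure D5:**
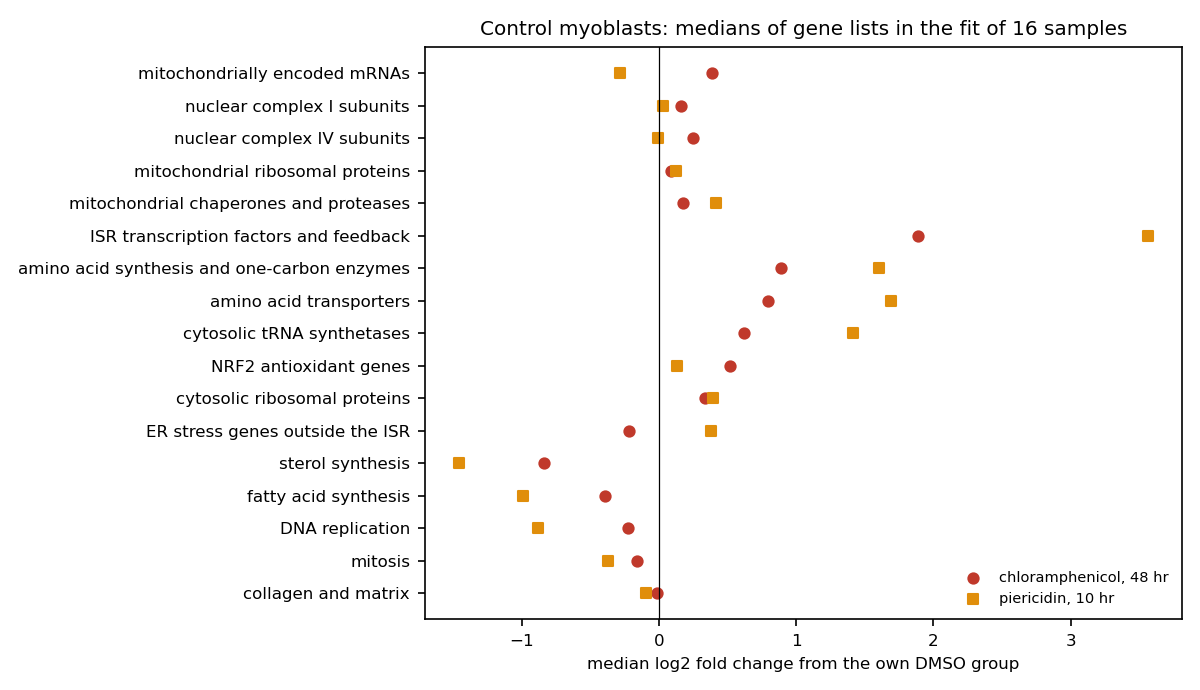
Median log2 fold change of 17 gene lists in control myoblasts, with chloramphenicol for 48 hr (circles) and piericidin for 10 hr (squares), each against its own DMSO samples, in the fit of 16 samples. The ISR medians are 1.89 and 3.56, and the medians of the mitochondrially encoded mRNAs lie on opposite sides of 0, at 0.38 and -0.28.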

How the data were processed

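RNA of C2C12 cells was sequenced as polyA-selected Smart-seq2 libraries, which do not keep the strand. The authors demultiplexed reads with bcl2fastq 2.20.0.422, quantified them with kallisto 0.44 with bias correction against the Ensembl mouse transcriptome (GRCm38) and the transgenes, and summed transcripts to genes. The deposited values are estimated counts, as whole numbers without normalization, for 54146 genes and 4 transgenes, which were left out of the fits. Reads that fit several near-identical genes are divided among them by the quantification, which limits values of gene copies. Here, genes that reached 16 counts in all samples of any condition were tested with edgeR 4.0.16 (R 4.3.3; quasi-likelihood F test, TMM, Benjamini-Hochberg over all genes tested, threshold 0.05) in a fit of the 8 samples of the 48 hr experiment, whose totals ran from 9397380 to 15366745 counts. The standard error of a log2 fold change is its size divided by the square root of F. Piericidin was compared in a fit of 16 control samples. The authors used DESeq2's Wald test, which is an alternative here (DESeq2 1.42.0). The test script was checked on simulated data. Other alternatives were DESeq2 size factors, no count filter, replicate number as a block, plate edge, the samples in the fit, leaving out each sample, and, chosen after seeing the data, counts of nuclear copies added to mitochondrial genes. With a sample left out, the lone sample of its group was assumed to vary like the other groups. Named genes are the largest called changes (up to 12 higher and up to 12 lower) with a mean of at least 50 normalized counts and groups that do not overlap, up to 4 members of each list with the smallest p (any member of lists of 15 or fewer), the known ISR genes Atf3, Ddit3, Atf4, Gdf15, Trib3 and Asns, 5 genes with the smallest p of the LbNOX difference, and up to 4 in each direction with opposite calls for chloramphenicol and piericidin. Some genes are not reported here. Other genes named were chosen after their values were seen. The comparison and the gene lists were chosen with earlier results of these data known.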

Additional observations from a re-analysis of the deposited data

Results flagged for a closer look

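The response to chloramphenicol differed between LbNOX and control myoblasts by the test of the difference itself (edgeR's quasi-likelihood test of the interaction) for 62 of 11702 genes, 0.453% lower and 0.0769% higher in LbNOX myoblasts. The 13 genes given here are a selection, some of them named for the small p of this difference, and other genes named in the report, such as Hspa9, Shmt2 and Sars, also had a called difference. Their number and directions are a description. Among the ISR regulators and effectors, the log2 difference was -1.81 for Trib3 (adjusted p = 0.011), -1.49 for Ddit3 (0.015), -1.38 for Gdf15 (0.044), -1.32 for Chac1 (0.010) and -0.91 for Atf4 (0.0040). In amino acid supply it was -0.73 for Asns (adjusted p = 0.010) and -0.95 for Slc3a2 (0.0073). The autophagy receptor Sqstm1 had a difference of -1.01 (adjusted p = 0.0026). The glutathione S-transferases had differences of -1.41 for Gsta4 (adjusted p = 0.0054) and -3.80 for Gsta1 (0.015), the latter among near-identical copies.

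The 3 of them with a higher value in LbNOX myoblasts had fallen in control myoblasts. The difference was 0.56 for Ldha (adjusted p = 0.0054), 0.83 for Idi1 (0.016) and 0.52 for Fdps (0.049). In both lines the samples of each gene were 2 against 2, and without LbNOX chloramphenicol sample 1 none of these 13 differences passed the threshold in edgeR's test. The cause of that loss was not tested.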

How the results depend on the processing

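The number of genes called with chloramphenicol in control myoblasts was 989 (565 higher, 424 lower). It was 645 (235 lower) with only the 4 samples compared and 1567 (864 higher, 703 lower) with all 45 myoblast samples in the fit, and 381 to 606 (224 to 372 higher, 132 to 234 lower) with 1 sample left out. The LbNOX difference, 62 genes (53 lower, 9 higher), was 440 without the count filter (196 lower, 244 higher), 22 with the replicate block (20 lower, 2 higher), 140 with DESeq2 (104 lower, 36 higher), and 0 to 36 (0 to 29 lower, 0 to 8 higher) with 1 sample left out. With plate edge as a covariate 18 genes of the LbNOX difference were higher. In control myoblasts 811 genes were then called, 729 of them among the 989. The edge wells of the 48 hr experiment held DMSO samples only, so plate edge goes partly with treatment. The difference from piericidin, 4305 genes, stayed within 1.5 times under each alternative run. The samples share a replicate number but nothing in the labels says that it marks a shared culture, and deviations of samples with the same number correlated at -0.23 to 0.271, so no pairing was assumed. With the replicate block 757 genes were called in control myoblasts, 745 of them among the 989. Signs of named values changed only where the difference was not called. Mthfd1 (0.01) was -0.0088 without the count filter and -0.0070 with plate edge, and Myod1 (-0.02) was 0.044 with plate edge. With 1 sample left out, log2 fold changes ran from -0.10 to 0.10 for Mthfd1, -0.014 to 0.10 for Shmt1, -0.046 to 0.18 for Sod2, -0.12 to 0.031 for Acaca, -0.00032 to 0.12 for Hspa5 and -0.19 to 0.0018 for Eif2ak4, and the LbNOX difference of mt-Co1 from -0.093 to 0.16. The causes were not tested, apart from the smaller number of samples that leaving one out imposes. Of 139 called genes named in the text or examined for it, 82 were called with any of the 4 samples left out. With 2 samples a group, changes near the limit of the calls, a log2 fold change of 0.11 at the smallest, and genes at few counts are the least certain.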

Other observations

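Some of the largest changes were in genes close to or at 0 with DMSO, which the rule for named genes leaves out (these genes were chosen after their values were seen). Cox6a2, the heart and muscle form of a complex IV subunit, had 0 and 0 counts with DMSO and 60 and 34 with chloramphenicol. Set against a floor of 3 counts over the DMSO group it was at least 41.5-fold higher in CPM. In LbNOX myoblasts it was at 0 and 0 normalized counts with DMSO and 9.45 and 10.9 with chloramphenicol. Car6, a secreted carbonic anhydrase, was at 0 and 0.653 normalized counts with DMSO and 100.3 and 85.7 with chloramphenicol in control myoblasts, and at 0 and 0 against 19.9 and 20.8 in LbNOX myoblasts.

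Tfrc, the transferrin receptor that imports iron, was at 2271 and 2544 normalized counts with DMSO and at 1221 and 1050 with chloramphenicol (log2 fold change -1.08, SE 0.08, adjusted p = 9.0e-05). The ferritin chains that store iron were higher, Fth1 by a log2 fold change of 0.52 and Ftl1 by 0.38 (adjusted p = 5.6e-05 and 0.00024 in edgeR's test). In all 3 genes the samples of the groups did not overlap. Tfrc was chosen after its values were seen.

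Dnajb11 and Ier2 varied widely between replicates. Dnajb11 was at 983 and 428 normalized counts with DMSO and at 514 and 997 with chloramphenicol, and Ier2 at 914 and 289 against 490 and 979. In both genes DMSO sample 2 and chloramphenicol sample 1 were low, and no difference between the groups could be read from them.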
